A study of Mus musculus with 8 samples.

Results

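The Notch pathway was followed in the newborn mouse aorta through 10 genes: the receptors Notch1, Notch2, Notch3 and Notch4, the ligands Jag1 and Dll4, and the target genes Hes1, Hey1, Hey2 and Heyl. They were taken by name, and not by a threshold on their values, from the rows of the deposited value table that carry a single gene symbol. Earlier results of these data were known when they were chosen. Each of the 10 was represented by 1 row among 22180 named genes. RNA came from the thoracic aorta of C57BL/6 pups on the day of birth (postnatal day 0), cut into the ascending part, which runs up to the ductus arteriosus, and the descending part, which ends at the diaphragm. Each segment was taken from wild-type pups and from pups that lacked the gene of fibulin-4, an extracellular protein without which elastin does not form proper fibres. This gave 4 groups of 2 arrays, and every array held the pooled tissue of 8 pups of 1 genotype. The 2 arrays of each group are named biological replicates in the labels, which mention neither a treatment nor a tissue-specific deletion.

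Notch signalling passes between touching cells. A ligand of the Jagged or Delta-like family on one cell binds a Notch receptor on its neighbour, the receptor is cut by an ADAM protease and then by gamma-secretase, and the freed intracellular part enters the nucleus, where it joins the DNA-binding protein RBPJ and switches on target genes of the Hes and Hey families, which are themselves repressors. In arteries, Dll4, Notch1 and Notch4 are known for their roles in the endothelium. Jag1 on endothelial cells engages Notch2 and Notch3 on smooth muscle, which can in turn make Jag1, and loss of Notch2 or Jag1 function disturbs the smooth muscle of the great arteries.

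Markers of the cell types in which these genes act were measured in the tissue. Acta2, the smooth muscle actin gene, had a log2 value (RMA, a normalized array intensity on the log2 scale) between 12.1 and 12.45 on the 8 arrays and Tagln, another smooth muscle marker, between 10.87 and 11.48. The endothelial markers Pecam1 and Cdh5 lay between 8.09 and 9.00 and between 7.48 and 9.02. The pericyte markers Rgs5 and Abcc9 had means of 10.73 and 8.47, and the leukocyte markers Fcer1g and Csf1r of 8.84 and 7.18. Whether the pericyte marker signal came from pericytes or from smooth muscle cells was not tested. At least 11 of 12 endothelial markers and all 12 smooth muscle markers stood above the median of all genes on every array, which was 4.98 to 5.08. Both wild-type replicate 2 arrays had a narrower distribution of values (interquartile range 1.80 and 1.74) than the other 6 arrays (2.14 to 2.28). Fibulin-4 itself was not analysed here, and the labels of genotype rest on the submitters' word. Because bulk tissue was measured, a lower value can stand for fewer cells of a type or for less RNA per cell, which cannot be told apart.

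None of the 10 Notch genes was called in the fibulin-4 knockout, in either segment or in their average. Averaged over both segments, the log2 change (knockout minus wild-type) ran from -0.07 for Hes1 to 0.26 for Heyl, with a median of 0.02 against 0.00 for all genes. With limma and Benjamini-Hochberg adjustment over all genes, 0 of 10 had an adjusted p under 0.05, as against 0.0721% of all genes, and the smallest adjusted p was 0.607. At an unadjusted p under 0.05 it was also 0 of 10, where 11.4% of all genes passed, and 0 of 10 had knockout and wild-type arrays apart in both segments in the same direction, where 11.8% of all genes did. The 95% intervals of all 10 changes included 0, and all lay between -0.74 and 0.67, so the widest bounds were 0.599-fold and 1.59-fold. A change by a factor of 2 is 1 on the log2 scale. It was passed by 240 of the 22180 genes in this comparison (1.08%). In the fit of all arrays a change of this size lay outside the interval of every one of the 10. Without both narrow wild-type arrays the averaged change of Hey2, the member with the widest interval, was -0.45 instead of -0.06. Whether a factor of 2 stays outside the intervals without these arrays was not tested.

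**Figure D1:**
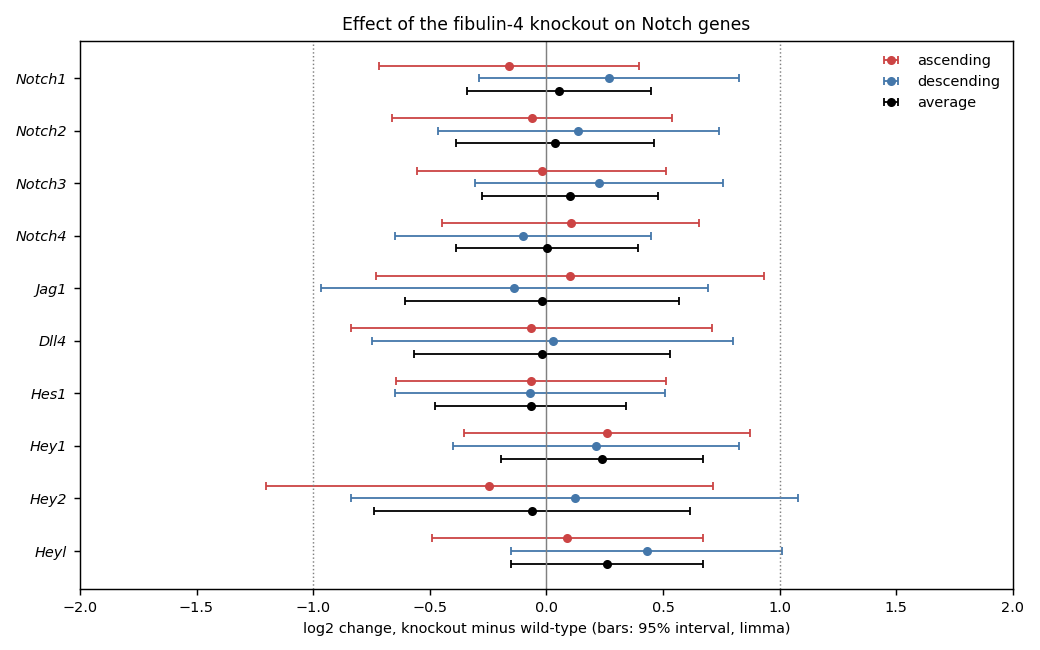
Log2 change of the 10 Notch genes, knockout minus wild-type, in ascending aorta (red), in descending aorta (blue) and averaged (black); points are limma estimates from 2 arrays per group, bars are 95% intervals, and dotted lines mark -1 and 1. Every bar crosses 0, and all 10 averaged bars lie between the dotted lines.

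Among the receptors, Notch1, the main endothelial receptor of arterial development, had log2 values of 6.94 and 7.02 in wild-type ascending and 6.72 and 6.93 in knockout ascending aorta. It had 6.75 and 6.89 in wild-type descending and 7.25 and 6.93 in knockout descending aorta. Both knockout arrays were thus below both wild-type arrays in the ascending segment and above them in the descending segment, and the 2 changes, -0.16 (SE 0.25) and 0.27 (SE 0.25), cancelled to 0.05 (SE 0.18) in the average. The difference of these changes, -0.43 (SE 0.35), had a limma adjusted p of 1.00 and an unadjusted p of 0.252. Notch1 was the 1 gene of 10 with such opposite placement, which 3.65% of all genes had in either order. In this comparison of the knockout effect between segments 0 of 10 members had an adjusted p under 0.05, where 0% of all genes did, and 0 of 10 had an unadjusted p under 0.05, where 3.3% did.

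Notch2, a receptor of smooth muscle derived from the neural crest, had 7.25 and 7.18 in wild-type ascending, 7.22 and 7.08 in knockout ascending, 6.90 and 6.81 in wild-type descending, and 7.27 and 6.70 in knockout descending aorta. The ascending arrays of both genotypes and the first knockout descending array were the high ones, and knockout and wild-type overlapped in both segments (averaged change 0.04, SE 0.19). Notch4, a receptor largely confined to endothelium, had 6.22 and 6.35 in wild-type ascending, 6.45 and 6.32 in knockout ascending, 6.44 and 6.60 in wild-type descending, and 6.56 and 6.28 in knockout descending aorta. All 8 values lay within 0.38 of each other, and the averaged change was 0.00 (SE 0.17), with a 95% interval from -0.39 to 0.39.

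Notch3, the receptor of arterial smooth muscle and pericytes, was the member with the closest replicates. Its log2 values were 6.98 and 6.79 in wild-type ascending, 6.95 and 6.77 in knockout ascending, 7.14 and 7.15 in wild-type descending, and 7.39 and 7.36 in knockout descending aorta. The mean of the groups was 6.88 ± 0.13 (SD, n = 2), 6.86 ± 0.13, 7.15 ± 0.01 and 7.37 ± 0.02 in that order. In the ascending segment the genotypes overlapped (change -0.02, SE 0.24), and in the descending segment both knockout arrays lay above both wild-type arrays by a small amount (0.23, SE 0.24, limma adjusted p = 0.925). The pooled SD between replicates was 0.09, at the 1.96th percentile of all genes. The moderated standard error, which borrows spread from all genes, is wider than that.

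The ligand Jag1 had 8.40 and 7.28 in wild-type ascending, 8.04 and 7.84 in knockout ascending, 8.68 and 8.18 in wild-type descending, and 8.18 and 8.40 in knockout descending aorta. Wild-type ascending replicate 2, at 7.28, was the low array, and its distance from replicate 1 gave the wild-type ascending group an SD of 0.79, larger than any difference between the genotypes. The averaged change was -0.02 (SE 0.26), and it ran from -0.30 to 0.26 with 1 array left out. It was -0.42 without both narrow wild-type arrays, of which wild-type ascending replicate 2 is 1. Dll4, the endothelial Delta-like ligand, was a dim gene, with a mean of 4.87 over all arrays, near the array medians. It had 4.46 and 5.01 in wild-type ascending, 4.86 and 4.48 in knockout ascending, 5.43 and 4.61 in wild-type descending, and 5.22 and 4.87 in knockout descending aorta. Knockout and wild-type overlapped in both segments, while both knockout descending arrays lay just above both knockout ascending arrays. The averaged change was -0.02 (SE 0.24, 95% interval -0.57 to 0.53). RMA compresses differences of dim genes, which limits what the arrays can show of Dll4.

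Of the target genes, Hes1, a repressor that responds to Notch and to other signals, had 6.31 and 6.18 in wild-type ascending, 6.23 and 6.13 in knockout ascending, 6.60 and 6.27 in wild-type descending, and 6.54 and 6.20 in knockout descending aorta. Genotypes overlapped in both segments, with an averaged change of -0.07 (SE 0.18, 95% interval -0.48 to 0.34). The 2 targets with the largest averaged changes were Heyl and Hey1, neither of which passed the test. Heyl, a target of Notch3 in vascular smooth muscle, had 7.85 and 7.81 in wild-type ascending, 8.01 and 7.83 in knockout ascending, 7.90 and 7.61 in wild-type descending, and 8.38 and 7.99 in knockout descending aorta. In the descending segment both knockout arrays were above both wild-type arrays, and the change of 0.43 (SE 0.26, 95% interval -0.15 to 1.01) had a limma adjusted p of 0.882. It was 0.19 after quantile normalization, and 0.29 without wild-type descending replicate 2. Leaving out the first or the second knockout descending array gave 0.24 and 0.62.

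Hey1 had 6.60 and 6.77 in wild-type ascending, 7.20 and 6.70 in knockout ascending, 7.17 and 6.90 in wild-type descending, and 7.37 and 7.13 in knockout descending aorta. The low arrays were the wild-type ascending pair and knockout ascending replicate 2, and knockout and wild-type overlapped in both segments. The averaged change was 0.24 (SE 0.19, limma adjusted p = 0.657), and it was 0.03 with quantile normalization and 0.11 without knockout ascending replicate 1. Hey2, known for its role in arterial identity and in the developing heart and great vessels, spread most between the arrays of a group. It had 7.75 and 7.47 in wild-type ascending, 7.72 and 7.01 in knockout ascending, 7.86 and 6.60 in wild-type descending, and 7.61 and 7.09 in knockout descending aorta. The array of wild-type descending replicate 2 was the lowest of the 8 and its partner the highest, so that the group's SD was 0.90. The pooled SD of Hey2, 0.56, was at the 91.0th percentile of all genes, and its averaged change of -0.06 (SE 0.30) had the widest interval of the 10.

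**Figure D2:**
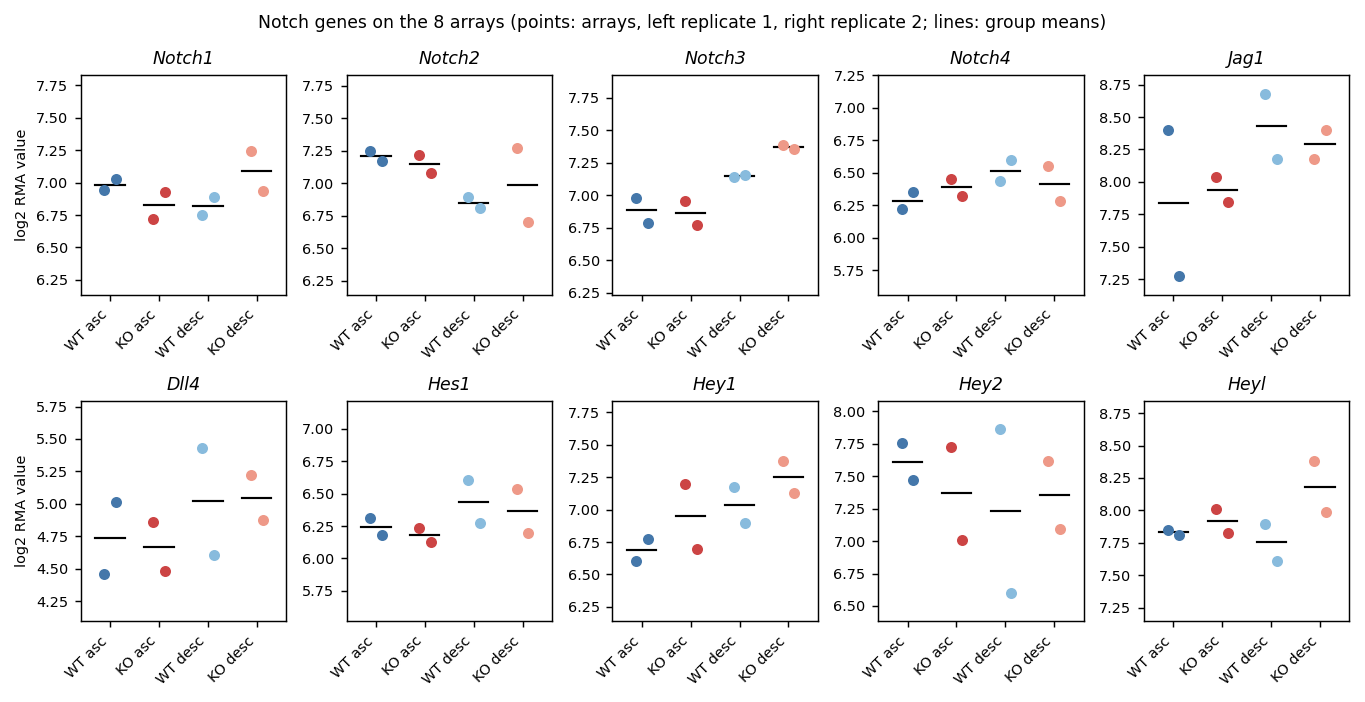
Log2 RMA values of the 10 Notch genes on the 8 arrays, by group (WT wild-type, KO knockout, asc ascending, desc descending); points are arrays, lines are group means, and every panel spans the same number of log2 units around the gene's own middle. Notch3 shows ascending arrays at 6.77 to 6.98 and descending arrays at 7.14 to 7.39, while Hey2, Jag1 and Dll4 spread widely within groups.

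In each segment alone, too, no member was called. In the ascending aorta the changes ran from -0.25 (Hey2) to 0.26 (Hey1), and 0 of 10 members had a limma adjusted p under 0.05, as against 0% of all genes, with 0 of 10 at an unadjusted p under 0.05 as against 8.9%. The smallest adjusted p was 0.810. Knockout and wild-type arrays were apart for 1 of 10, Notch1, where 39.8% of all genes had them apart, and 4 of 10 changes were above 0 against 49.3% of all genes. In the descending aorta the changes ran from -0.14 (Jag1) to 0.43 (Heyl), and 0 of 10 had an adjusted p under 0.05, as against 0.00451% of all genes, with 0 of 10 at an unadjusted p under 0.05 as against 5.95%. Knockout and wild-type arrays were apart for 3 of 10, Notch1, Notch3 and Heyl, all of them higher, where 37.3% of all genes had their arrays apart in either direction, and 7 of 10 changes were above 0 against 53.7%. Within a segment the intervals were wider: they reached 0.434-fold at the low end for Hey2 in ascending aorta and 2.11-fold at the high end for Hey2 in descending aorta, so that 9 and 8 of the 10 lay within a factor of 2.

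Cell type markers were set beside these values, and none of the endothelial or leukocyte markers was called in the ascending aorta. In the ascending aorta 9 of 12 endothelial markers lay below 0 in the knockout (median log2 change -0.71), and their mean log2 level was 6.75 to 6.93 on the wild-type and 6.21 to 6.36 on the knockout arrays. Egfl7 (-1.19), Cldn5 (-1.21) and Vwf (-0.81) were among the 7 with an unadjusted p under 0.05, and the smallest limma adjusted p of the list was 0.327. The brightest markers, Pecam1 and Cdh5, had group means of 8.79 and 8.43 in wild-type and of 8.14 and 7.48 in knockout. Of the 3 markers above 0, Erg had the largest change (0.70), with 5.98 and 5.90 on wild-type and 6.51 and 6.78 on knockout arrays. Of the members with endothelial roles, Notch1 stood at -0.16, Notch4 at 0.10 and Dll4 at -0.06 in the same comparison. All 6 leukocyte markers lay above 0 there (median 1.25), 5 of them with an unadjusted p under 0.05 (smallest limma adjusted p 0.181), with a mean level of 6.11 to 6.15 on wild-type and 7.17 to 7.42 on knockout arrays. Notch1 and Notch2 are also made by blood cells. The part of these cell types in the Notch values was not tested.

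**Figure D3:**
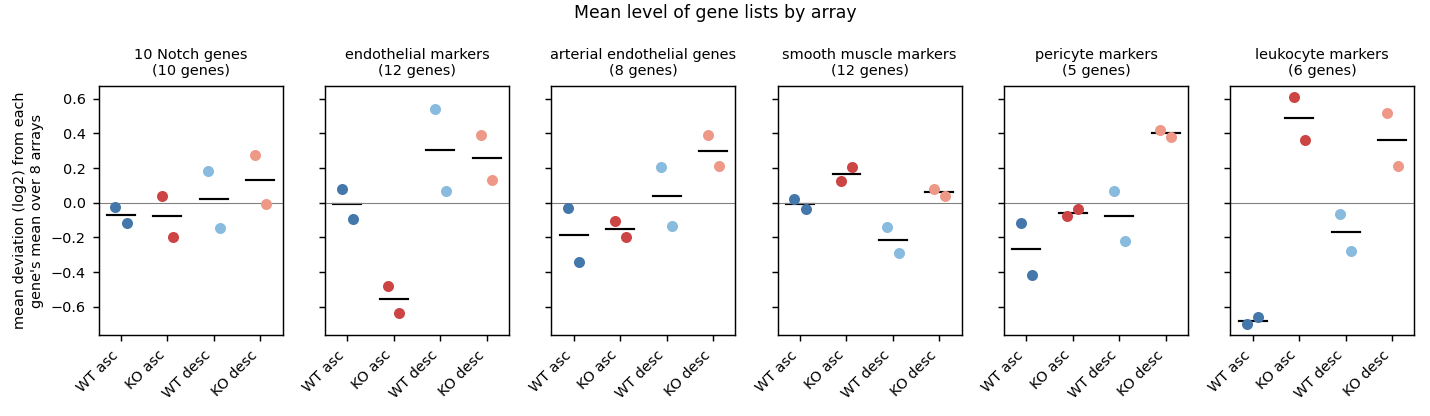
Mean deviation, in log2 units, of the 10 Notch genes and of 5 marker lists from each gene's own mean over the 8 arrays, by group; points are arrays and lines are group means. Endothelial markers are lowest on the knockout ascending arrays and leukocyte markers on the wild-type ascending arrays, while the Notch genes span -0.20 to 0.27.

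Between the segments, Notch3 stood out among the 10 by the placement of its arrays. All 4 ascending arrays (6.77 to 6.98) lay below all 4 descending arrays (7.14 to 7.39), and the difference, ascending minus descending averaged over both genotypes, was -0.39 (SE 0.17, 95% interval -0.77 to -0.01), which is 0.764-fold. This did not pass the test across all genes: the limma adjusted p was 0.740, and the unadjusted p was 0.0448. A two-sided exact permutation test that reassigns arrays to segments within each genotype (36 arrangements) cannot go below p = 0.0556 and gives that value to any gene with fully separated segments, so it adds nothing to the placement of the arrays. The difference was -0.27 in wild-type and -0.51 in knockout aorta, and these did not differ detectably (difference of the knockout effect -0.25, SE 0.34, limma adjusted p = 1.00). It kept its sign in all 16 alternative fits, between -0.43 and -0.34, and the separated arrays fix that sign wherever arrays were left out.

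Notch3 was 1 of 10 members with segments apart, as against 3.77% of all genes, and 1 of 10 with an unadjusted p under 0.05, as against 6.61%; 0 of 10 had an adjusted p under 0.05, as against 0.0225%. Pericyte markers, which mark mural cells that also carry Notch3, lay below 0 in 4 of 5 (median -0.46) in the same comparison, with Pdgfrb at -0.46 and Abcc9 at -0.54, and endothelial markers in 11 of 12 (median -0.51). The pericyte marker above 0 was Cspg4 (0.30). Rgs5, the brightest of the list, had group means of 10.57 (wild-type) and 10.69 (knockout) in ascending and of 10.72 and 10.94 in descending aorta. The mean log2 level of the 5 pericyte markers was 7.93 to 8.30 on the ascending and 8.12 to 8.76 on the descending arrays. Smooth muscle markers lay the other way in 8 of 12 (median 0.16). Other marker lists had larger median differences: brown fat markers lay below 0 in 6 of 6 (median -1.07, all 6 with an unadjusted p under 0.05), cardiomyocyte markers below 0 in 5 of 6 (median -0.61), and skeletal muscle markers above 0 in 6 of 6 (median 1.12, 5 with an unadjusted p under 0.05). None of the markers in these lists was called after adjustment. The part of these lists in the Notch3 difference was not tested. The promoter of Notch3, from 250 bases before to 50 bases after the annotated gene start (RefSeq, GRCm38.p6, chr17:32166841-32167140, minus strand, written 5′ to 3′), is shown because Notch3 is the member whose segments stood apart. It holds no TGGGAA, the core letters that RBPJ binds, on either strand.
Notch3: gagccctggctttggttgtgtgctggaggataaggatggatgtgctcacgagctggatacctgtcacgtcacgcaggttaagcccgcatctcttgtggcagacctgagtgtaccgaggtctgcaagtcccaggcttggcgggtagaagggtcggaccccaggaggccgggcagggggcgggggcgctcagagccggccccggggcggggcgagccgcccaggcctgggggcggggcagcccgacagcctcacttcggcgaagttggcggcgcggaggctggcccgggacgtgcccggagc

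Jag1, Dll4, Hes1 and Hey1 shared with Notch3 and Notch4 an order of group means in which both descending groups stood above both ascending groups, while Notch2 and Hey2 had the wild-type ascending group on top. For most neighbouring groups in these orders the arrays overlapped. The exceptions were knockout descending above wild-type descending and wild-type descending above wild-type ascending for Notch3, wild-type ascending above knockout ascending for Notch1, and knockout descending above knockout ascending for Jag1. The ascending minus descending difference was -0.47 (SE 0.26) for Jag1, -0.33 (SE 0.24) for Dll4, -0.32 (SE 0.19) for Hey1, -0.19 (SE 0.18) for Hes1 and -0.13 (SE 0.17) for Notch4. It was 0.26 (SE 0.19) for Notch2 and 0.20 (SE 0.30) for Hey2, and near 0 for Notch1 (-0.05, SE 0.18) and Heyl (-0.09, SE 0.18). In all, 2 of 10 lay above 0, where 50.2% of all genes did, and the median was -0.16 against 0.00 for all genes. The intervals of all but Notch3 included 0, and the widest reached 0.481-fold for Jag1.

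**Figure D4:**
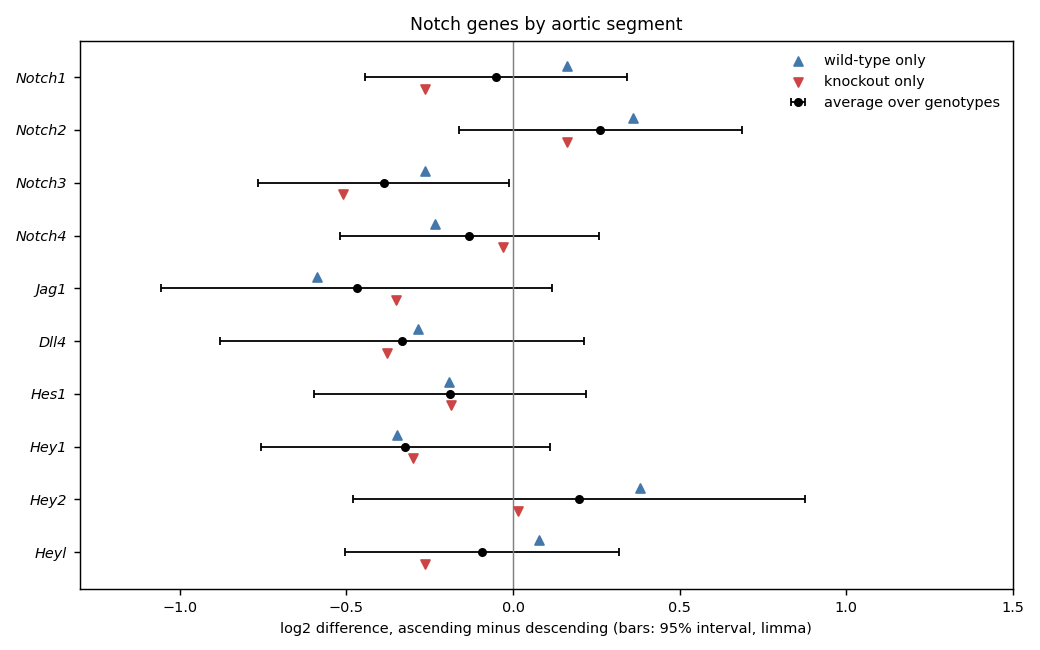
Log2 difference of the 10 Notch genes, ascending minus descending aorta; black points and bars are the average over genotypes with its 95% interval (limma), blue triangles the wild-type and red triangles the knockout difference alone, from 2 arrays per group. The Notch3 bar ends just below 0, at -0.01, and the other 9 bars cross it.

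Among the 7 member promoters that could be searched, that of Hey2 was the one with the RBPJ core, and Hey2 was the only target gene among them. RefSeq promoter windows of 300 bases were matched for 7 of the 10 genes (Notch1, Notch2, Notch3, Notch4, Jag1, Dll4 and Hey2). The target genes Hes1, Hey1 and Heyl had no window and were not searched. TGGGAA, read on both strands, was found in 1 of these 7, as against 25.6% of 32851 mouse promoter windows of the same length. In Hey2 it occurs at 2 places, starting 207 bases before the gene start on the opposite strand and 3 bases before it on the gene's own strand. Both are also matches of the longer GTGGGAA, which contains the core and occurs in 6.38% of all windows. The E-box CACGTG, letters that Hes and Hey proteins can bind, was found in 0 of 7, as against 7.15%. The window is chr10:30842734-30843033 on the minus strand (GRCm38.p6), written 5′ to 3′ with both matches to TGGGAA or its reverse complement in capitals, and it is shown as the target gene whose arrays disagreed most within groups. A match is a description of letters and not a mapped binding site.
Hey2: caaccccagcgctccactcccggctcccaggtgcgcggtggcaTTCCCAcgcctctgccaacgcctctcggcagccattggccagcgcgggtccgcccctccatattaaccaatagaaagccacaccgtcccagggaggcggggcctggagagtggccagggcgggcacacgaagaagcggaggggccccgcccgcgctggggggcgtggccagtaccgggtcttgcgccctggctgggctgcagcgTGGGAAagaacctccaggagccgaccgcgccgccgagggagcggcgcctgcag

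The patterns most like those of the members with the largest range of group means were sought over the 8 arrays by Pearson's correlation with every other gene. The range was 0.59 for Jag1, 0.56 for Hey1 and 0.51 for Notch3, which lie at the 62.3rd, 59.1st and 52.1st percentile of all genes, whose median range was 0.50. The genes closest to Jag1 were Rrm2b (0.97), Cox6b1 (0.97) and Cmc1 (0.96). Those closest to Hey1 were Abcd4 (0.97), Chd3 (0.96) and Fabp7 (0.95), and those closest to Notch3 were Tmem215 (0.97), 4732440D04Rik (0.97) and Ank2 (0.96). These values are the highest among 22180 genes, over only 8 arrays, and are given as a description.

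Around the 10 members, 47 of 49 further genes of the pathway had a row with 1 symbol. Averaged over both segments, 33 of the 47 lay above 0 in the knockout (median 0.25 against 0.00 for all genes) and 0 had a limma adjusted p under 0.05 (smallest 0.283), with 6 higher and 1 lower at an unadjusted p under 0.05. These 7 of 47 stand beside 11.4% of all genes, a share close to theirs. All 7 belonged to the list of glycosylation and processing enzymes or to that of the nuclear complex. In descending aorta the mean log2 level of the 9 nuclear complex genes was 6.81 and 6.29 on the wild-type arrays, the lower on a narrow array. It was 6.81 and 6.86 on the knockout arrays. In ascending aorta it was 6.42 and 6.37 against 6.70 and 6.74. Without the dimmest 25% of genes the median knockout effect of all genes was 0.06. The part of the narrow arrays in these values was not tested. The values that follow are of genes that did not pass adjustment. Poglut1, which adds O-glucose to the EGF-like repeats of Notch, had 6.63 and 5.97 in wild-type ascending, 7.15 and 7.71 in knockout ascending, 6.79 and 6.30 in wild-type descending, and 6.90 and 7.72 in knockout descending aorta. Every knockout array thus lay above both wild-type arrays of its segment, and the averaged change was 0.95 (SE 0.26, limma adjusted p = 0.283).

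Ncstn, the nicastrin subunit of gamma-secretase, had 7.83 and 7.94 in wild-type ascending, 8.07 and 8.30 in knockout ascending, 7.65 and 7.52 in wild-type descending, and 8.23 and 8.39 in knockout descending aorta. Its genotypes were apart in both segments, with an averaged change of 0.51 (SE 0.17, limma adjusted p = 0.342) and 0.72 (SE 0.24) in descending aorta. Adam10, the protease of the first cut, stood at 0.61 (SE 0.24), the acetyltransferase gene Ep300 at 0.60 (SE 0.21), and Spen, a corepressor bound to RBPJ, at 0.41 (SE 0.18). Aph1c, a gamma-secretase subunit gene with a close paralog, Aph1b, from which probes may not separate it, stood at -0.88 (SE 0.33). Its wild-type ascending arrays, 5.48 and 6.85, were more than 1 log2 unit apart, and the higher value of each wild-type pair was on a narrow array. For Poglut1 and Adam10 the lower value of each wild-type pair was on a narrow array. For Ncstn, Ep300 and Spen this was so in descending aorta only. Adam10 overlapped between genotypes there, at 7.45 and 6.47 in wild-type and 7.26 and 7.61 in knockout. In ascending aorta alone Poglut1 (1.13, SE 0.37), Ep300 (0.79, SE 0.30) and Mfng (-0.63, SE 0.28), a glycosyltransferase that modifies Notch, had an unadjusted p under 0.05, as 8.9% of all genes did.

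By list, glycosylation and processing genes lay above 0 in 10 of 14 (median 0.28), nuclear complex genes in 7 of 9 (0.41), endocytosis and turnover genes in 10 of 12 (0.23), other ligands in 3 of 6 (0.04), and other Hes genes with Nrarp in 3 of 6 (0.08). The members themselves lay above 0 in 6 of 10 (0.02), where 49.8% of all genes did. Rbpj, the DNA-binding partner of the receptors, stood at 0.39 in the averaged knockout effect and Nrarp, a feedback inhibitor that Notch induces, at 0.32, neither with an unadjusted p under 0.05. Between the segments, 28 of 47 lay below 0 and 0 had an adjusted p under 0.05 (smallest 0.610), with 0 higher and 5 lower at an unadjusted p under 0.05, where 6.61% of all genes passed. Lfng, the Fringe glycosyltransferase that tunes ligand choice, had ascending values of 6.43 and 6.32 in wild-type and 6.51 and 6.57 in knockout. Its descending values were 7.00 and 6.96 in wild-type and 6.91 and 6.93 in knockout, so that all 4 ascending arrays lay below all 4 descending ones (-0.49, SE 0.16, limma adjusted p = 0.610). Dlk1, a non-canonical ligand, stood at -0.44 (SE 0.17), Nrarp at -0.47 (SE 0.19), Hdac1 at -0.68 (SE 0.24) and Aph1b at -0.47 (SE 0.20), none of them called.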

How the data were processed

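Gene expression was measured on 8 arrays, 2 per group of genotype and aortic segment, from RNA of pooled tissue amplified from small input and labelled with biotin, per the labels' protocols. The authors deposited 1 log2 value per probe set, for which Affymetrix Expression Console and the RMA method are named, per the submitters' processing notes, without a version or genome build. Of 41345 rows, 23521 carried 1 gene symbol in the platform annotation, and the row with the highest mean was kept per gene, which left 22180 genes. Precision is limited by having 2 arrays per group, with a median standard error of 0.30 for a change within a segment and of 0.21 for an average.

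Log2 values were fitted with limma 3.58.1 (R 4.3.3), with a mean per group over all 8 arrays (4 residual degrees of freedom), and p-values were adjusted by Benjamini-Hochberg over all genes. In 15 further lists 118 of 120 entries were measured, and each list was described by counts and medians. The members, lists, alternatives and tests were chosen with earlier results of these data known. Named are all members, up to 6 other pathway genes with the smallest unadjusted p under 0.05 per comparison, the 3 genes most like each of 3 members, and the 2 brightest markers of each list, with further markers as examples. Alternatives were array weights, trend with robust estimation in limma, averaged probe sets, no genes from the dimmest 25%, quantile normalization, median centring, the replicate number as a block, and fits without each array or without both narrow arrays. Marker lists of 10 cell types were computed, of which endothelial, smooth muscle, pericyte and leukocyte markers are described mainly in the report and the rest mainly in the closing section. RefSeq promoters (GRCm38.p6) were searched with Python 3.11.15, and figures were drawn with matplotlib 3.10.9.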

Additional observations from a re-analysis of the deposited data

Results flagged for a closer look

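Notch1 was singled out because its arrays were placed in opposite order in the 2 segments: both knockout arrays lay below both wild-type arrays in ascending aorta and above them in descending aorta. The difference of the 2 knockout effects, ascending minus descending, was -0.43 on the log2 scale (SE 0.35). It did not pass the limma test of that difference (unadjusted p = 0.252, adjusted p = 1.00 over all genes), and 3.65% of all genes had opposite placement in one order or the other. The value lay between -0.58 and -0.27 in 16 alternative fits.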

How the results depend on the processing

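No member was called in any of the 5 comparisons under any of 16 alternatives. Of the 800 member changes so recomputed, 767 stayed within 1 standard error of the reported value and 33 moved further. Of the 800, 79 changed sign, 0 of them where the reported change exceeded its standard error. In the averaged knockout effect Hey1 and Heyl stayed above 0 in all 16 fits. The range was -0.16 to 0.13 for Notch1, -0.18 to 0.18 for Notch2, -0.10 to 0.15 for Notch3 and -0.19 to 0.07 for Notch4. For these receptors the low end lay below every fit with 1 array left out. The count of 6 members above 0 thus depends on the processing. The number of genes called among all 22180 moved far more, and the cause was not tested. For the averaged knockout effect (16 genes) it was 2 after quantile normalization, 35 without the dimmest 25% of genes and 25 without both narrow wild-type arrays, and 0 to 50 with 1 array left out: 50 without wild-type ascending replicate 1, 2 and 4 without wild-type descending replicates 1 and 2, 1 without knockout ascending replicate 1 or either knockout descending array, and 0 without knockout ascending replicate 2. For the ascending effect (0) it was 1 without the dimmest 25%, 4 with limma's trend and robust options and 11 without both narrow arrays, and 0 to 14 with 1 array left out (11 and 14 without wild-type ascending replicates 1 and 2, 1 without either wild-type descending array). For the descending effect (1) it was 0 with centring on the median, quantile normalization or the replicate block, 2 without the dimmest 25% or with array weights, 4 with trend and robust options, 7 without both narrow arrays, and 0 to 2 with 1 array left out. It stayed at 1 there only without wild-type descending replicate 1. For the segment difference (5) it was 2 after quantile normalization or with the replicate block, 8 with trend and robust options, 22 without both narrow arrays, and 0 to 13 with 1 array left out (13 and 9 without wild-type ascending replicates 1 and 2, 1 without either wild-type descending array, 0 without any 1 knockout array). For the difference between segments (0) it was 1 without both narrow arrays and 0 with any 1 array left out.

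Replicate numbers are shared between groups, and the labels do not say that a number marks a shared pool, litter or day. Differences between replicates 1 and 2 correlated between groups across genes from -0.08 to 0.29, and the numbers were not taken to pair samples. The highest, 0.29, was between wild-type ascending and wild-type descending aorta, whose replicate 2 arrays were the narrow ones. Between knockout ascending and knockout descending aorta it was -0.02. Whether wild-type arrays of the same number shared a pool or day was not tested. With the number as a block 0 members were called in each comparison. Replicate 1 lay above replicate 2 in all 4 groups for 4 of 10 members (Notch2, Hes1, Hey2 and Heyl), as against 10.2% of all genes.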

Other observations

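Genes that mark arterial rather than general endothelium were set beside the Notch genes. In the averaged knockout effect 6 of 8 lay above 0 (median 0.20), where 49.8% of all genes did, and 0 were called. The values were 0.83 (SE 0.19) for Unc5b, a netrin receptor of arterial endothelium, and -0.59 (SE 0.18) for Gja5, which encodes connexin 40, with limma adjusted p of 0.185 and 0.302. Ascending minus descending, 5 of 8 lay below 0 (median -0.37) and 3 above 0, where 50.2% of all genes lay above 0. The lowest was Nrp1 at -0.79, followed by Sox17, an arterial transcription factor, at -0.78 (SE 0.19) and Gja5 at -0.76 (SE 0.18). Above 0 were Efnb2, the highest at 0.19, Unc5b and Cxcr4. In the same comparison Notch3 stood at -0.39 and Dll4 at -0.33.

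Markers of the cell types in the dissected tissue were compared in the same way, and 0 were called in any list. In the averaged knockout effect the median log2 change was 0.86 for 6 leukocyte markers, 0.58 for 6 cardiomyocyte markers, 0.28 for 4 lymphatic markers, 0.22 for 6 fibroblast markers, 0.20 for 12 smooth muscle markers, 0.17 for 5 pericyte markers, -0.33 for 12 endothelial markers, -0.70 for 6 skeletal muscle markers and -1.29 for 6 brown fat markers. The brightest markers of the lists not yet named were Nrp1 and Gja4 (arterial), Dcn and Col1a1 (fibroblast), Lyve1 and Pdpn (lymphatic), Tnnt2 and Myl7 (cardiomyocyte), Acta1 and Tnni2 (skeletal muscle), and Fabp4 and Cox8b (brown fat). The smallest limma adjusted p was 0.082 in the leukocyte list (5 of 6 with an unadjusted p under 0.05) and 0.0989 in the brown fat list (5 of 6). Pdgfrb, a mural cell receptor that Notch3 is known to induce, stood at 0.70 (SE 0.17, limma adjusted p = 0.225), beside 0.10 for Notch3 itself. It was higher on every knockout array than on both wild-type arrays of its segment. Such placement in both segments, in either direction, was found for 11.8% of all genes. The other pericyte markers stood at 0.72 (Cspg4), 0.17 (Rgs5), 0.09 (Abcc9) and 0.03 (Kcnj8). A part of Notch3 in these values was not tested.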
